A study of Mus musculus with 16 samples.

Results

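The genes described here are 10 genes of fatty acid uptake, activation and storage, namely Angptl4, Plin2, Hilpda, Cd36, Acsl1, Acsl3, Acsl4, Dgat1, Dgat2 and Pnpla2, out of 56941 genes counted in primary murine gingival fibroblasts (mGF). They were chosen by symbol, with earlier results of these same libraries in view, among them the size of the Angptl4 rise with IL-1β, so fold changes and calls of the 10 are a description and not independent evidence. Of the 10, 9 had enough counts to be tested, and Cd36 did not. Bulk RNA was measured in 16 libraries of wild-type cells, 4 in each of 4 conditions. The cells grew out of gingival explants from the maxillary second molar region of C57Bl6 mice aged 3 to 6 months, were used at passages 2 to 8, and were kept in medium with 20% fetal bovine serum. The conditions were BSA (control), the albumin vehicle, its dose written as 200 µM; 1 ng/mL recombinant mouse IL-1β; 200 µM palmitate in complex with BSA; and palmitate + IL-1β at both doses. By the study's description, the IL-1β cells received the same 200 µM vehicle. How many mice, explants or cultures stand behind the 4 libraries of a condition is not given in the sources used here, so p-values measure the spread between these libraries, which may be technical.

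Long-chain fatty acids such as palmitate enter cells partly through Cd36, are trapped as acyl-CoA by the Acsl synthetases, and are joined to glycerol by Dgat1 and Dgat2 to make triglyceride. Triglyceride is stored in lipid droplets coated by perilipins such as Plin2, and is released again by the lipase Pnpla2 (ATGL), which Hilpda inhibits. Angptl4 is secreted and inhibits lipoprotein lipase, the enzyme that frees fatty acids from lipoproteins. Fatty acids are also ligands of the peroxisome proliferator-activated receptors (PPARs), nuclear receptors that raise Angptl4, Plin2, Pdk4 and Cpt1a in many cell types. IL-1β acts through its receptor and NF-kB and is known for raising chemokines and adhesion molecules in fibroblasts.

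The libraries held 21234789 to 92752515 counts on genes, with palmitate 10 the deepest. Levels below are CPM, counts per 1000000 of the TMM-scaled library size, and each gene's floor of 3 counts lay between 0.0331 and 0.146 CPM. All 10 fibroblast markers listed passed the filter on low counts, with a summed level of 28486 to 33728 CPM. Of 8 adipocyte markers, 6 were at or under the floor in every library, among them Adipoq, Plin1 and Cidec, and Retn was at 0. Their summed level was 3.78 to 4.65 CPM in BSA (control), 6.71 to 7.93 with IL-1β, 2.94 to 3.25 with palmitate and 5.67 to 6.29 with both, most of it Lipe. Macrophage, endothelial and epithelial markers summed to at most 4.35, 2.79 and 0.760 CPM in any library.

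The conditions are those of the labels, and the response genes stood against what those names would lead a reader to look for. The lists of response genes were chosen with earlier results of these data known, so their counts are a description and not independent evidence. Of 22 tested PPAR target genes outside uptake and storage, 13 were higher and 1 was lower in the libraries labelled IL-1β than in BSA (control), with a median log2 fold change of 0.32. In the libraries labelled palmitate 2 were higher and 13 were lower, with a median of -0.21. Of 24 tested IL-1 and NF-kB response genes, all 24 were higher in the libraries labelled palmitate, with a median log2 fold change of 3.10, and 21 were higher in those labelled IL-1β, with a median of 1.43. The median over all 16306 genes tested was -0.00 in both comparisons. Of these genes, 10.1% were higher and 4.97% lower in the libraries labelled IL-1β, and 19.8% and 17.5% in those labelled palmitate. Set directly against each other, the libraries labelled palmitate had 19 of the 22 PPAR targets lower and 20 of the 24 IL-1 and NF-kB genes higher than those labelled IL-1β. Of all genes tested, 16.5% were higher and 15.2% lower in that comparison. Whether the labels of these conditions are exchanged was not tested, and every condition name below is that of the label.

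**Figure D1:**
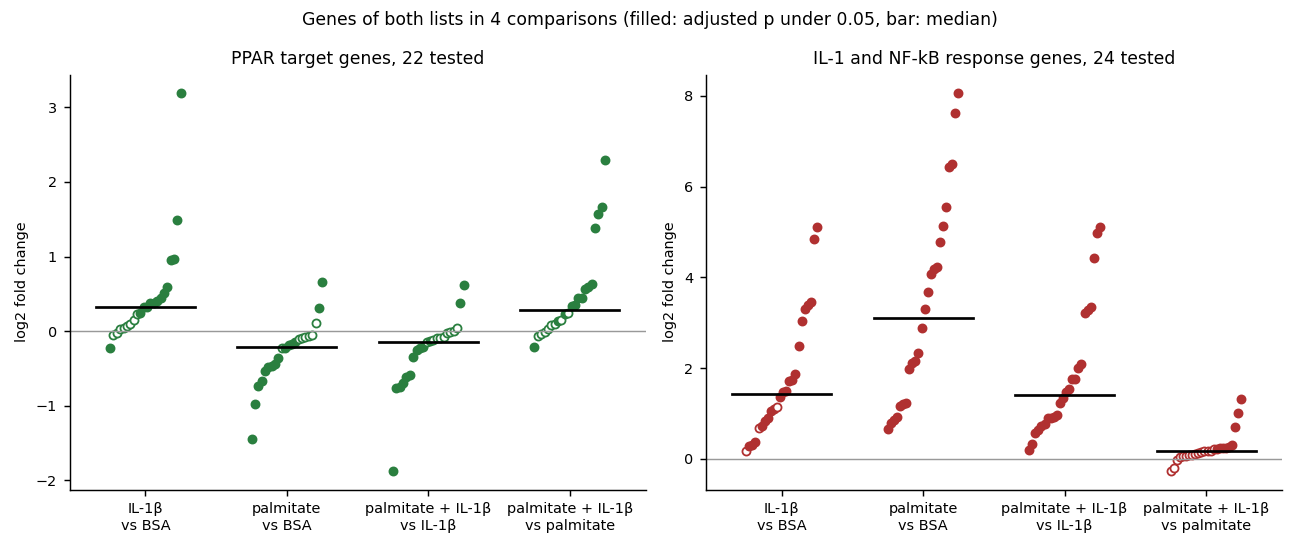
Fitted log2 fold changes (vertical axis) of 22 PPAR target genes (left) and 24 IL-1 and NF-kB response genes (right) in 4 comparisons. Each point is a gene, filled where the adjusted p was under 0.05, and the bar is the median. PPAR targets lie mostly above 0 where IL-1β is the agent added and below 0 where palmitate is. The IL-1 and NF-kB genes lie highest with palmitate against BSA (control), at a median of 3.10. Their median was 1.43 with IL-1β against BSA (control), 1.41 with palmitate added to IL-1β and 0.17 with IL-1β added to palmitate.

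Within a condition, levels of different genes are compared per kb of the canonical transcript (GENCODE vM39). In BSA (control) Plin2 had the highest level of the 10, at 30.5 ± 0.373 CPM per kb (SD, n = 4), followed by Pnpla2 at 18.7 ± 1.23, Acsl3 at 15.0 ± 0.614 and Acsl4 at 13.8 ± 0.462. Dgat2 stood at 4.09 ± 0.167, Dgat1 at 2.96 ± 0.388 and Acsl1 at 2.40 ± 0.118. Hilpda at 1.49 ± 0.226 and Angptl4 at 1.34 ± 0.407 were the lowest of those tested. Libraries of Dgat1 and Acsl1 overlapped, and so did those of Hilpda and Angptl4, so neither pair has an order beyond its spread. With palmitate + IL-1β Angptl4 moved to the top, at 46.5 ± 1.79 CPM per kb, above Plin2 at 40.9 ± 1.33. The order depends on the length used. Per kb of all annotated exons Plin2, whose exons over all isoforms add to 7684 bases against 2050 in the canonical transcript, ranked 4 in BSA (control) with 8.13 ± 0.0994, and Acsl4 ranked 1 with 12.5 ± 0.419.

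Cd36 (ENSMUSG00000002944.16; GRCm39 chromosome 5, 17986432 to 18094067, minus strand), the fatty acid translocase, had 0 to 3 counts in any library. The 4 IL-1β libraries held 1, 2, 3 and 1 counts, and in each of the other conditions at least 2 libraries held 0. All 16 were at or under the floor, so no difference in Cd36 was detectable at this depth.

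Angptl4 (ENSMUSG00000002289.17; GRCm39 chromosome 17, 33992724 to 34000804, minus strand) was at 3.08, 4.07, 6.29 and 4.33 CPM in the 4 BSA (control) libraries. It was at 99.8, 101, 105 and 96.5 CPM with IL-1β, at 17.0, 22.6, 22.7 and 20.7 CPM with palmitate, and at 161, 157, 151 and 147 CPM with both. No library of any condition overlapped one of another, and the order was BSA (control), palmitate, IL-1β, then both. Against BSA (control) the log2 fold changes were 4.52 ± 0.13 (SE) with IL-1β, 2.26 ± 0.14 with palmitate and 5.14 ± 0.13 with both. Added to palmitate, IL-1β raised it by a further 2.87 ± 0.11 on the log2 scale, which was the highest fitted log2 fold change of all 16306 genes in that comparison. Added to IL-1β, palmitate went with a log2 fold change of 0.61 ± 0.10 (adjusted p = 1.4e-04 in edgeR, where the quasi-likelihood p-values of all genes were adjusted by Benjamini-Hochberg). In a bulk sample, fewer cells that express a gene and less of its RNA per cell cannot be told apart.

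**Figure D2:**
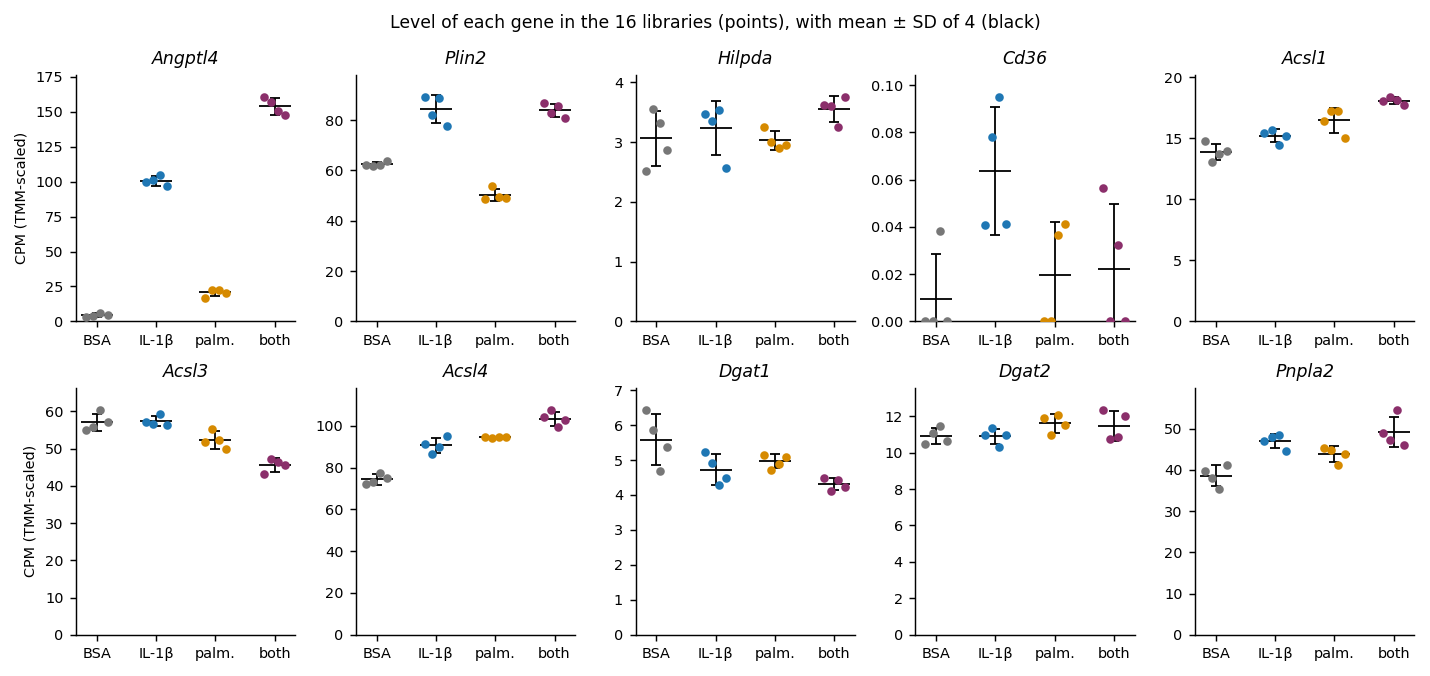
Level of each of the 10 genes in CPM (vertical axis, from 0) by condition (horizontal axis; palm., palmitate; both, palmitate + IL-1β). Points are the 16 libraries and black marks are the mean ± SD of 4. Angptl4 separates all 4 conditions, Plin2 is low with palmitate and high in both conditions with IL-1β, and Cd36 reaches at most 0.0950 CPM.

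Plin2 (ENSMUSG00000028494.13; GRCm39 chromosome 4, 86565912 to 86588459, minus strand), the droplet coat protein that most cell types carry, was at 62.3, 61.9, 62.0 and 63.6 CPM in BSA (control). It was at 48.6, 53.7, 49.3 and 49.1 CPM with palmitate, 89.2, 82.2, 88.9 and 77.6 CPM with IL-1β, and 86.6, 82.6, 85.5 and 80.6 CPM with both. All palmitate libraries were below all BSA (control) libraries, and all libraries with IL-1β, alone or added, were above them. The log2 fold change against BSA (control) was -0.31 ± 0.05 (SE) with palmitate (adjusted p = 3.3e-06), 0.44 ± 0.05 with IL-1β (adjusted p = 2.8e-08) and 0.43 ± 0.05 with both (adjusted p = 4.9e-09). With IL-1β present, palmitate made no difference past the threshold, at -0.01 ± 0.05 with a 95% interval from -0.11 to 0.08. Of the Plin2 transcript, 30.4% is found at 95% identity or more in Gm12551, so reads with more than 1 place may have been lost from its count. Lipe, an adipocyte marker and a lipase, moved with Plin2 across the conditions. It averaged 4.07 ± 0.296 CPM (SD, n = 4) in BSA (control), 2.81 ± 0.0705 with palmitate, 6.91 ± 0.545 with IL-1β and 5.76 ± 0.327 with both, while the defining adipocyte markers named above were at or under the floor.

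The promoters of the 4 genes with the highest level per kb of canonical transcript in BSA (control) are shown because their levels went different ways: Plin2 fell with palmitate, Acsl3 fell with palmitate + IL-1β, and Acsl4 and Pnpla2 rose in each treated condition. The RefSeq table of promoter windows (GRCm38.p6) held 7 of the 10 genes in 9 windows. Angptl4, Dgat1 and Dgat2 had no window there, so their promoters were not searched. Each stretch runs from 250 bases before the start site to 10 after it, 5′ to 3′ on the gene's strand. Capitals mark matches, on either strand, to AGGTCA, the single site of many nuclear receptors, and to ACGTG and GCGTG, cores bound by basic helix-loop-helix factors.
Plin2, chr4:86670050-86670309, minus strand: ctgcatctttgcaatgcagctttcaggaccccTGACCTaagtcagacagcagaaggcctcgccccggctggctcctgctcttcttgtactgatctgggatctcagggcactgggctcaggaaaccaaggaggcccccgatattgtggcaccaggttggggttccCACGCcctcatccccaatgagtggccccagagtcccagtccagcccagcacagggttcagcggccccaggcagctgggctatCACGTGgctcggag
Acsl3, chr1:78657575-78657834, plus strand: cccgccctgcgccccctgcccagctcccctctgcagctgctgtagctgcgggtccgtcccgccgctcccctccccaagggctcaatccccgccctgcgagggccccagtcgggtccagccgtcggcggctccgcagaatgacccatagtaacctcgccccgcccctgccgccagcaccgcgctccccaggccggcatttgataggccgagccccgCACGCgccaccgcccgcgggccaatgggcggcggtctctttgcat
Acsl4, chrX:142390526-142390785, minus strand: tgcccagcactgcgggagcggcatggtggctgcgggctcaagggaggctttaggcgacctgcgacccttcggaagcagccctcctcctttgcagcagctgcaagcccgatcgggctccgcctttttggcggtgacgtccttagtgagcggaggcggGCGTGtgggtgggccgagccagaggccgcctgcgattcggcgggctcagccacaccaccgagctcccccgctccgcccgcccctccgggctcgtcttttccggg
Pnpla2, chr7:141454938-141455197, plus strand: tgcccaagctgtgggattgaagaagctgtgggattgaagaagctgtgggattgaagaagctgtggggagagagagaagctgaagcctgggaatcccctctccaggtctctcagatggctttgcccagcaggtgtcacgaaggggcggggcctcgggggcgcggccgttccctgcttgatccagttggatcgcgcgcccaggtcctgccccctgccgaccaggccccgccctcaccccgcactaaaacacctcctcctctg
In whole windows of 300 bases, AGGTCA was found in 16.3% of all 32851 windows and in 2 of the 9 of these genes, those of Plin2, with its first base at -218 from the start site, and Cd36. In the Plin2 window ACGTG matches on both strands overlap at -4 and -3, and ACGTG occurred in 19.6% of all windows and 2 of the 9. GCGTG occurred in 32.4% of all windows and 6 of the 9, at -86 in Plin2, -35 in Acsl3 and -94 in Acsl4. The 6 include 2 windows of Hilpda that overlap. The match at 28 in the first of them is the same site as that at -111 in the second, so 1 site is counted in 2 windows. A direct repeat of AGGNCA with 1 base between the copies, the arrangement PPARs prefer, N being any base, was in 0.381% of all windows and in 0 of the 9. The matches are a description of letters only.

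Among the synthetases that activate fatty acids, Acsl4 (ENSMUSG00000031278.13; chromosome X, 141100840 to 141173789), which prefers polyunsaturated chains, rose in each treated condition. The BSA (control) libraries held 71.9, 72.9, 77.6 and 75.01 CPM. It was at 91.3, 86.5, 89.8 and 94.95 CPM in the IL-1β libraries, at 94.8, 94.4, 94.8 and 94.5 CPM in those with palmitate, and at 104, 107, 99.3 and 103 CPM in those with both. IL-1β and palmitate libraries overlapped, and both groups lay wholly above BSA (control) and below palmitate + IL-1β. The log2 fold changes against BSA (control) were 0.29 ± 0.04 (SE) with IL-1β (adjusted p = 5.5e-06), 0.35 ± 0.04 with palmitate (adjusted p = 3.1e-08) and 0.48 ± 0.04 with both (adjusted p = 2.8e-11).

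Acsl3 (ENSMUSG00000032883.16; chromosome 1, 78635537 to 78685461), the synthetase found on nascent droplets, went the other way. It was at 54.9, 55.9, 60.3 and 57.1 CPM in BSA (control) against 57.2, 56.6, 59.4 and 56.3 CPM with IL-1β, and these groups overlapped. With palmitate it was at 51.7, 55.4, 52.4 and 49.8 CPM and with both at 43.1, 47.1, 46.5 and 45.7 CPM, the latter below every library of the other 3 conditions. The log2 fold change with both was -0.32 ± 0.05 (SE) against BSA (control) (adjusted p = 6.8e-07) and -0.33 ± 0.05 against IL-1β (adjusted p = 8.1e-07). The smaller fall with palmitate alone, -0.12 ± 0.05, had an adjusted p of 0.0396 and lost its call without the expression filter and without any of BSA 3, BSA 4, palmitate 9, palmitate 11 or palmitate 12. Of the Acsl3 transcript, 7.81% is shared with Utp14b, which overlaps it on the same strand.

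Acsl1 (ENSMUSG00000018796.14; chromosome 8, 46924063 to 46990145), the main synthetase of fat and muscle and a PPAR target, was less abundant. It was at 14.7, 13.1, 13.7 and 13.9 CPM in BSA (control) against 15.4, 15.7, 14.5 and 15.2 CPM with IL-1β, groups that overlapped. It was at 16.4, 17.3, 17.2 and 15.0 CPM with palmitate and 18.05, 18.4, 18.1 and 17.7 CPM with both, groups that lay wholly above BSA (control). The log2 fold change was 0.25 ± 0.06 (SE) with palmitate (adjusted p = 0.00161) and 0.38 ± 0.06 with both (adjusted p = 6.6e-06), and with IL-1β it was 0.13 ± 0.06 (adjusted p = 0.195).

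Of the enzymes that complete triglyceride, Dgat1 passed in 1 comparison with BSA (control) and Dgat2 did not. Dgat1 (ENSMUSG00000022555.13; chromosome 15, 76385083 to 76396476) was at 4.69 to 6.42 CPM in BSA (control), 4.27 to 5.24 with IL-1β, 4.72 to 5.15 with palmitate and 4.10 to 4.48 with both. It was lower with both than in BSA (control), at a log2 fold change of -0.38 ± 0.11 (SE) (adjusted p = 0.00396), and these groups did not overlap. On the opposite strand Hsf1 covers 31.8% of the Dgat1 transcript, and the counts were made by strand. Dgat2 (ENSMUSG00000030747.6; chromosome 7, 98802491 to 98831991) lay between 10.3 and 12.3 CPM in all 16 libraries. Its log2 fold changes against BSA (control) had 95% intervals of -0.15 to 0.15 with IL-1β, -0.07 to 0.23 with palmitate and -0.07 to 0.22 with both.

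On the side of lipolysis, Pnpla2 (ENSMUSG00000025509.16; chromosome 7, 141034404 to 141040656) was at 39.8, 38.0, 35.3 and 41.1 CPM in BSA (control) against 47.0, 47.9, 48.4 and 44.6 CPM with IL-1β. It was at 45.4, 44.9, 41.2 and 43.9 CPM with palmitate and at 48.9, 47.2, 54.5 and 46.1 CPM with both. Each treated group lay above BSA (control), though palmitate 11 was barely above BSA 4, and the IL-1β libraries overlapped those of both other treatments. The log2 fold changes were 0.28 ± 0.06 (SE) with IL-1β (adjusted p = 3.6e-04), 0.18 ± 0.05 with palmitate (adjusted p = 0.00791) and 0.35 ± 0.05 with both (adjusted p = 2.9e-06). With upper-quartile normalization the palmitate value was 0.12 and no longer passed (adjusted p = 0.0950). Hilpda (ENSMUSG00000043421.9; chromosome 6, 29272409 to 29276301), the inhibitor of this lipase, lay between 2.52 and 3.76 CPM in all libraries with every pair of conditions overlapping. Its log2 fold change with both against BSA (control) was 0.22 ± 0.13 (95% interval -0.05 to 0.49), from 82 to 128 counts in each of these 8 libraries.

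Counted over the 9 tested genes, 6 passed the threshold with palmitate against BSA (control), 4 higher and 2 lower, where 19.8% of all genes tested were higher and 17.5% lower. With IL-1β 4 passed, all higher, beside 10.1% of all genes higher and 4.97% lower. With both agents 5 were higher and 2 lower, beside 24.8% and 22.5% of all genes. Palmitate + IL-1β against IL-1β gave 3 higher and 1 lower, beside 18.9% and 16.1%. Against palmitate it gave 4 higher and 1 lower, beside 5.71% and 4.10%, but 2 of the 4, Acsl4 and Pnpla2, were close to the threshold (adjusted p = 0.0431 and 0.0484), and 3 genes were left under several other settings and without any 1 of BSA 1, BSA 2, IL-1β 7, palmitate 9 to 12, and palmitate + IL-1β 13 or 14. In palmitate set against IL-1β 3 were lower, namely Angptl4, Plin2 and Acsl3, where 16.5% of all genes were higher and 15.2% lower. Acsl3 lost this call without the expression filter and without any 1 of IL-1β 7 or palmitate 9, 11 or 12. These comparisons share libraries, so their counts are not separate evidence. With upper-quartile normalization, 37.1% of the genes called between palmitate and BSA (control) were higher, against 53.1% with TMM, and the split was 43.5% against 67.1% with IL-1β and 38.7% against 52.4% with both.

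**Figure D3:**
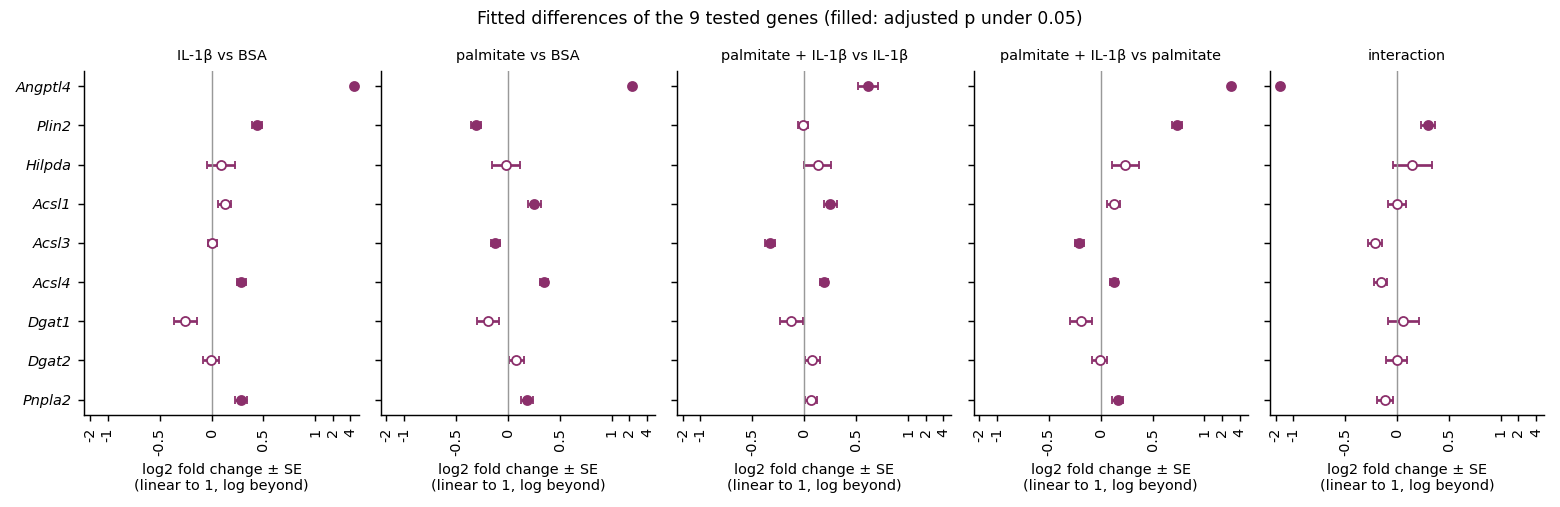
Fitted log2 fold change ± SE (horizontal axis, linear to 1 and logarithmic beyond) of the 9 tested genes in 4 comparisons and the interaction. Filled points had an adjusted p under 0.05. Plin2 lies at -0.31 with palmitate and at 0.44 with IL-1β. Angptl4 lies far to the right with either agent against BSA (control) and with IL-1β added to palmitate. It is at 0.61 with palmitate added to IL-1β and at -1.65 in the interaction.

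An interaction contrast asked whether palmitate's log2 effect differed with and without IL-1β, which 1.99% of all genes showed, 298 of 324 of them with a negative term. Among the 24 tested IL-1 and NF-kB response genes 17 passed, all with a negative term, and the median over the 24 was -1.29. Of the 9 genes 2 passed. For Angptl4 the term was -1.65 ± 0.17 (SE) (edgeR adjusted p = 3.9e-05), so the log2 rise with palmitate was smaller when IL-1β was present. In CPM the sign was opposite. The separate rises, 96.0 CPM with IL-1β plus palmitate's 16.3 CPM, add to 112 CPM, and the rise with both was 149 CPM, an excess of 37.0 ± 3.72 (SE) CPM. Plin2 had a term of 0.30 ± 0.07 (adjusted p = 0.00776), since its fall of 12.3 CPM with palmitate was not seen when IL-1β was present, and its excess over the sum of single effects was 11.7 ± 3.35 CPM. Acsl3 had a term of -0.21 ± 0.07 that did not pass (adjusted p = 0.105), and its level with both was 7.06 ± 1.99 CPM under the sum.

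Other genes of the same pathway were taken from lists that leave out the 10. Over all genes tested, 19.8% were higher and 17.5% lower with palmitate, 10.1% and 4.97% with IL-1β, and 24.8% and 22.5% with both. The list counts in this and the next paragraphs stand beside these shares, and no list was tested against them. Of 17 tested genes of fatty acid uptake and binding, 7 were lower and 2 higher with palmitate (median log2 fold change -0.23), and 2 were lower with IL-1β (median -0.05). Both of the latter also fell with palmitate. Fabp5, a cytosolic fatty acid carrier, went from 277 ± 25.2 CPM (SD, n = 4) to 210.0 ± 6.55 with IL-1β, or 195 ± 6.81 with palmitate, log2 fold changes of -0.40 ± 0.05 (SE) and -0.51 ± 0.05. Cav1, the caveolar coat protein, fell by 0.30 on the log2 scale with either agent and by 0.60 with both, from 855 ± 36.3 CPM to 562 ± 17.0.

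Of 16 tested genes of activation and acyl-CoA hydrolysis, 4 were higher and 7 lower with palmitate (median -0.22), and 2 were higher and 2 lower with IL-1β (median -0.02). The thioesterase Acot11 went from 13.7 ± 0.847 CPM in BSA (control) to 6.32 ± 0.530 with palmitate and 5.68 ± 0.278 with both. Acss2, which activates acetate, was at 10.3 ± 1.02 CPM in BSA (control) against 7.25 ± 0.576 with IL-1β, a log2 fold change of -0.51 ± 0.10. Of 17 tested genes of glycerolipid and sterol ester synthesis, 5 were higher and 4 lower with palmitate (median 0.07), 5 were higher with IL-1β (median 0.01), and 8 were higher and 5 lower with both (median 0.15).

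Of 10 tested genes of droplet coat and biogenesis, 4 were lower and 1 higher with palmitate (median -0.06), and 2 were higher and 1 lower with IL-1β (median 0.01). Plin4, a perilipin of adipocytes and muscle, had its levels in another order than Plin2. It was at 61.7 ± 1.77 CPM in BSA (control), much as with IL-1β (65.5 ± 3.64), but 23.9 ± 1.69 with palmitate and 23.7 ± 1.05 with both. The log2 fold change with palmitate was -1.38 ± 0.05 without IL-1β and -1.47 ± 0.05 with it, where that of Plin2 was -0.31 and -0.01. Among 8 tested lipolysis genes 4 were lower and 2 higher with palmitate (median -0.11), and 1 was lower and 1, Lipe, higher with IL-1β (median -0.00).

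Of 11 tested receptors and coactivators, 3 were higher and 2 lower with palmitate (median -0.02) and 3 were higher with IL-1β (median 0.06). Pparg fell from 19.6 ± 0.251 CPM in BSA (control) to 9.82 ± 0.733 with palmitate and 9.46 ± 1.12 with both, log2 fold changes of -0.99 ± 0.07 and -1.05 ± 0.07, and stood at 17.4 ± 0.971 with IL-1β (-0.17 ± 0.07, adjusted p = 0.106). Ppard, named after its values were seen, followed another order, at 32.9 ± 1.85, 46.9 ± 2.27, 52.8 ± 2.33 and 75.8 ± 3.25 CPM in BSA (control), IL-1β, palmitate and both. Ppara did not pass the filter, with at most 25 counts per library.

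Among PPAR target genes outside uptake and storage, Pdk4, the kinase that shuts off pyruvate dehydrogenase, had an order close to that of Angptl4. It was at 32.8 ± 1.90 CPM in BSA (control), 40.8 ± 1.19 with palmitate, 92.5 ± 5.82 with IL-1β and 121 ± 5.39 with both. Cpt1a, the gate of mitochondrial fatty acid oxidation, had the order of Plin2, at 112 ± 2.16, 82.4 ± 4.03, 216 ± 8.05 and 214 ± 7.45 CPM in the same sequence. Like Plin2 it had a positive interaction, of 0.42 ± 0.06 (adjusted p = 1.6e-05), the only one of the 22 to pass. Added to palmitate, IL-1β raised 13 and lowered 1 of the 22 (median 0.29), and added to IL-1β, palmitate raised 2 and lowered 11 (median -0.14). Of all genes tested, 5.71% were higher and 4.10% lower in the former comparison, and 18.9% and 16.1% in the latter. Hypoxia-inducible factors also raise Angptl4, Hilpda and Plin2. Of 24 tested targets of these factors outside the 10, 21 were called with palmitate (median 0.37), 7 with IL-1β (median -0.00) and 17 with both (median 0.33). Every call against BSA (control) was higher. With palmitate added to IL-1β 16 were higher and 0 lower (median 0.31). With IL-1β added to palmitate 4 were higher and 4 lower (median -0.06). Hilpda did not pass in any comparison.

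**Figure D4:**
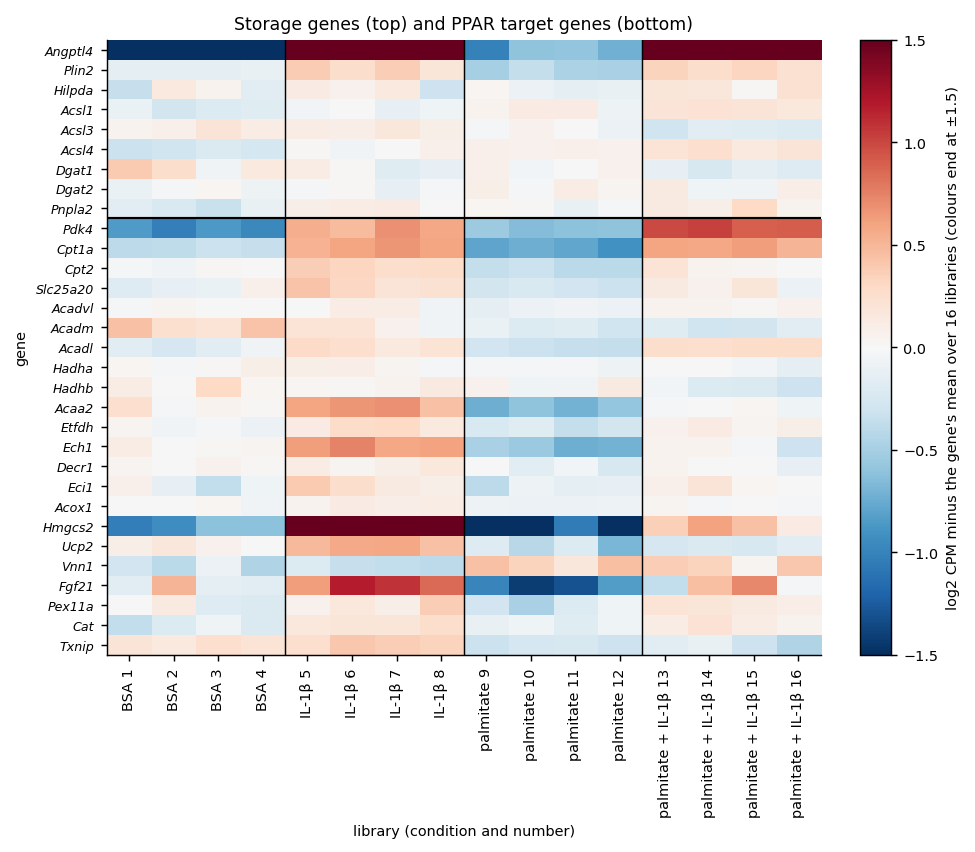
Log2 CPM of the 9 tested storage genes (above the line) and 22 PPAR target genes (below it) in the 16 libraries (columns), each row centred on its own mean, with colours ending at ±1.5. Angptl4, Plin2, Pdk4, Cpt1a and Acadl are red in both conditions with IL-1β and lower in the other 2, while Acaa2 and Ech1 are highest with IL-1β alone and lowest with palmitate.

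Log2 fold changes of the IL-1 and NF-kB response genes reached 5.11 with IL-1β and 8.05 with palmitate against BSA (control). The chemokine Cxcl5 and the adhesion molecule Icam1, given here, were among the largest rises with palmitate. With IL-1β the largest rises named from all lists were Cxcl2, Icam1 and Cxcl1, and Cxcl2 was also among those with IL-1β added to palmitate. Cxcl5 averaged 2.98 ± 0.192 CPM (SD, n = 4) in BSA (control), 29.4 ± 2.34 with IL-1β, 582 ± 13.1 with palmitate and 629.9 ± 43.4 with both. Icam1 was at 1.19 ± 0.435, 13.2 ± 0.879, 109.8 ± 1.40 and 123 ± 7.99 CPM in the same order. Ptgs2 was the 1 gene of that list lower with palmitate than with IL-1β (log2 difference -0.43), and its level ran with that of Angptl4.

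Over the 16 libraries, the 5 genes most like Angptl4 by Pearson's r of log2 CPM, among 11826 candidates, were Osgin1 (0.981), Ptgs2 (0.970), Plk3 (0.969), Ifrd1 (0.969) and Klf10 (0.965). Those most like Plin2 were Cpt1a (0.982), Lipe (0.967), Acadl (0.961), Klf11 (0.945) and Gm17251 (0.941). The 16 points share 4 condition means, so r is a description and has no p. Osgin1 was at 7.73 ± 0.543 CPM in BSA (control), 12.8 ± 1.17 with palmitate, 23.2 ± 0.770 with IL-1β and 31.5 ± 0.976 with both. Acadl, an enzyme of mitochondrial fatty acid oxidation, was at 107 ± 6.07, 95.6 ± 2.12, 139.9 ± 5.96 and 144 ± 0.735 CPM in that order. 3 of the 5 genes most like Plin2 are also in a list, Cpt1a and Acadl in that of PPAR target genes and Lipe in that of lipolysis genes. Of those most like Angptl4 only Ptgs2 is in a list, that of IL-1 and NF-kB response genes.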

How the data were processed

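RNA of mGF in 16 libraries was sequenced. The authors trimmed reads with Trimmomatic 0.39, aligned them with STAR 2.7.10a to GRCm39 and counted them per gene and by strand with HTSeq 2.0.9, per the labels' processing notes and the study's methods. On the library kit the sources differ, stranded total RNA in the labels and oligo(dT) priming in the study's methods. The deposited values are raw counts, without normalization. In each library 18.3% to 21.4% of the counts lay in 5 rows that name no gene and were left out.

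From these counts, differences were tested with edgeR 4.0.16 (R 4.3.3): TMM factors (0.970 to 1.04), filterByExpr (minimum count 10, minimum total count 15), and a robust quasi-likelihood fit with the 16 libraries in 1 model of 4 condition means, adjusted by Benjamini-Hochberg over 16306 genes. A gene was called at an adjusted p under 0.05. The SE is the log2 fold change over the square root of its F. The fit was tested on simulated data. Alternatives were DESeq2 1.42.0, other size factors, other filters, only the 8 libraries compared and leaving out each library.

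The 10 genes and all gene lists were chosen with earlier results of these data known. Besides the 10, the text names for each comparison up to 3 rises and 3 falls from the lists, among genes that passed with an average log2 CPM of at least 1 and no overlap between the libraries compared, and the 5 genes most like Angptl4 and Plin2. Those named in more than 1 comparison are described once. Cxcl1, Cxcl2, Saa3, Lcn2, Ndrg1 and Ddit4, also named by this rule, belong to the response lists and appear in their counts. Of 181 listed symbols, 149 were tested. Positions, lengths and shared sequence (95% identity over at least 100 bases) come from GENCODE vM39 on GRCm39. Floors cover counting error only. Replicate pairs all differed by more than sampling noise.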

Additional observations from a re-analysis of the deposited data

Results flagged for a closer look

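In palmitate 10 the Plin2 level was 53.7 CPM, while the other 3 palmitate libraries lay at 48.6 to 49.3 CPM, and this gap took up 0.871 of the group's range, more than Dixon's 95% critical value for 4 libraries. It was the 1 such case among 36 combinations of gene and condition, and chance gives about 1 in 20. Palmitate 10 is also the deepest library, and without it the Plin2 log2 fold change with palmitate was -0.35, against -0.31 with it. The effect of palmitate on Angptl4 differed with and without IL-1β, by an interaction of -1.65 on the log2 scale. Plin2 differed in the same contrast, by 0.30.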

How the results depend on the processing

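No called log2 fold change of the 10 genes changed direction under these alternatives. With palmitate + IL-1β against palmitate the count of called genes was 5. It was 3 with upper-quartile normalization, with DESeq2 size factors in edgeR, without the expression filter and with only the 8 libraries compared. It was 4 with DESeq2 and with at least 10 counts in every library, where Pnpla2 was lost. Leaving out single libraries gave 3 to 5. Wherever 3 were left, Acsl4 and Pnpla2 were the genes lost, and the cause was not tested. In the other comparisons the count moved by at most 1 under all settings, with 5 to 6 for palmitate against BSA (control), 4 to 5 for IL-1β against BSA (control), 7 for both against BSA (control), 4 for both against IL-1β, 2 to 3 for palmitate against IL-1β and 2 to 3 for the interaction. Without BSA 3, Dgat1 with IL-1β (-0.32, adjusted p = 0.0432) and the Acsl3 interaction (-0.24, adjusted p = 0.0452) passed. No paired analysis was possible because each of the 16 libraries has a number of its own. Low counts left Cd36 untested, with 0 counts in palmitate 10, the deepest library, and leave wide intervals for Hilpda and Dgat1.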
